A study of Mus musculus with 6 samples.

Results

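DNA methylation at the genes of the RUNX transcription factors was examined in mouse CD8+ T cells that had been enriched from LNs. The members were the CpGs in Runx1, Runx2, Runx3, and Cbfb and in the 10 kb on either side of each gene. A CpG was selected on its read depth, by at least 5 reads in all 6 libraries, which left 661 of the 1192344 CpGs that met this minimum in the whole series. Runx1 held 179 of them, Runx2 210, Runx3 177, and Cbfb 95. The methylation levels themselves chose no CpG, but the genes were proposed with earlier results of these data known. At the edge of the minimum, the 96 CpGs with exactly 5 reads in their shallowest library had a mean level of 39.1%, and the 51 CpGs with 4 reads, which were left out, had one of 37.3%.

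All mice were C57BL/6N at an age of 13 weeks. WT mice carried no transgene, hSTAT5B mice carried a human STAT5B transgene (hSTAT5B +/T), and hSTAT5BN642H mice carried the same transgene with the N642H mutation found in human leukemia and lymphoma (hSTAT5B N642H +/T). The Vav1 promoter drives both transgenes throughout the hematopoietic system, each genotype stands for 1 selected transgenic line, and the hSTAT5BN642H mice had T cell disease when the cells were taken. There were 2 libraries per genotype, and RRBS was used to read the share of methylated molecules at each CpG after digestion with MspI, an enzyme that cuts at CCGG.

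RUNX proteins bind DNA through a shared Runt domain, and CBFβ, the product of Cbfb, binds that domain and strengthens its hold on DNA without contacting DNA itself. Runx1 is needed for definitive hematopoiesis and thymocyte development, Runx3 silences Cd4 and maintains the CD8 program, and Runx2 is best known for bone formation. Each Runx gene has a distal promoter and a proximal promoter, which is richer in CpGs and lies in a CpG island (CGI). The transcripts from them encode different N termini. Cbfb has a single CGI promoter.

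The sequence of the Runx1 and Runx3 promoters is shown to display how unlike the distal and proximal starts are as RRBS templates. Each line gives 150 bases 5′ to 3′ on the strand of the gene, ending at the base before the most 5′ annotated start (GRCm38, GENCODE M21), and CG is in capitals. Runx1 distal is chr16:92826150-92826299 (minus strand), Runx1 proximal is chr16:92697329-92697478 (minus strand), Runx3 distal is chr4:135120502-135120651 (plus strand), and Runx3 proximal is chr4:135152346-135152495 (plus strand).
Runx1 distal promoter: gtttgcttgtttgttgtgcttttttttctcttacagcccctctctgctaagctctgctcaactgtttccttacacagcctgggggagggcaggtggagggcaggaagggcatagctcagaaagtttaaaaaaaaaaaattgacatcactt
Runx1 proximal promoter: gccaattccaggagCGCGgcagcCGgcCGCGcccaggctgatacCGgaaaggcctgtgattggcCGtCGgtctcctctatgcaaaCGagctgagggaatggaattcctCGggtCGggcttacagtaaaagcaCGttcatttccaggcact
Runx3 distal promoter: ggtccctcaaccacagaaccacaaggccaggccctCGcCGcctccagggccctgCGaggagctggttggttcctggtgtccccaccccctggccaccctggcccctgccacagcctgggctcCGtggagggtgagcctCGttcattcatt
Runx3 proximal promoter: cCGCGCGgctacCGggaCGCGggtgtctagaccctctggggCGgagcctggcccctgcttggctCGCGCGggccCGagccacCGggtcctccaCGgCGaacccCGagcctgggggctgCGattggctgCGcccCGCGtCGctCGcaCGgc

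The Runx1 lines hold 0 CpGs (distal) and 12 CpGs (proximal), and the Runx3 lines hold 5 and 22. In RefSeq promoter sequences of GRCm38, which run from 250 bases before to 50 after a start, the RUNX motif TGTGGT was searched on both strands. It was present 2 times in the distal promoter of Runx1, 3 times in that of Runx2, and 2 times in that of Runx3, and 0 times in the proximal promoters of Runx1 and Runx3 and in the Cbfb promoter. Of all 32851 promoters in the table, 16.8% held the motif. The STAT5 motif TTCNNNGAA, found in 8.30% of all promoters, was in none of these 6 sequences, which says only that these letters are not in these windows. A RefSeq sequence of the Runx2 proximal promoter was not used here.

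Reads were summed or averaged over regions of a gene, namely promoters with the CGI around them, internal CGIs, exons and introns outside these, and the 10 kb flanks. A level is the mean over the CpGs of a region in 1 library, and SDs are over the 2 libraries of a genotype. A level between 0 and 100% is a share of DNA molecules, so that partial methylation in all cells and a mixture of cells cannot be told apart. The depth was 43291086 to 67007186 reads on CpGs per library, and the median measured CpG of a member gene had 12 to 33.5 reads in a library.

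**Figure D1:**
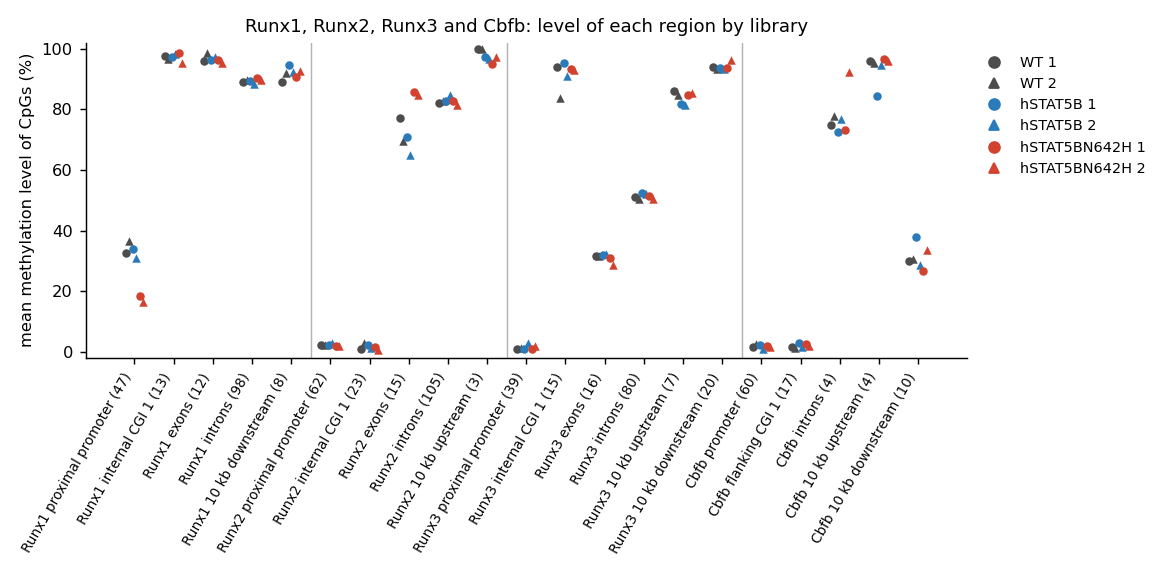
Mean methylation level (%, y axis) of each region of the 4 genes with at least 3 measured CpGs, whose number is given in parentheses, with 1 point per library, colored by genotype and shaped by replicate. The Runx1 proximal promoter is the only promoter above 5%, and it stands at 16.6% and 18.3% in the hSTAT5BN642H libraries against 31.0% to 36.5% in the other 4.

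The CGI promoters of Runx2, Runx3, and Cbfb were almost free of methylation in every library. The Runx2 proximal promoter (chr17:44734193-44737648, 62 CpGs) stood at 2.31% ± 0.107 (SD, n = 2) in WT, 2.65% ± 0.581 in hSTAT5B, and 2.01% ± 0.00459 in hSTAT5BN642H. The Runx3 proximal promoter (chr4:135151496-135153101, 39 CpGs) had 1.16% ± 0.168 in WT, 1.88% ± 1.43 in hSTAT5B, and 1.36% ± 0.588 in hSTAT5BN642H. The Cbfb promoter (chr8:105169674-105171772, 60 CpGs) had 2.17% ± 0.725, 1.64% ± 0.999, and 1.68% ± 0.289 in the same order. Of the 60 Cbfb CpGs a single one, at -31 bases from the start, was past 10% in all 6 libraries, and it was at 15.4% to 34.8%. All these differences between genotypes were below 1 percentage point. Over the 15562 gene promoters measured in the same way, the median level was 3.10%, and 38.9% of promoters were lower than that of Runx2, 13.01% lower than that of Runx3, and 26.1% lower than that of Cbfb.

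The Runx1 proximal promoter differed from these. Over its 47 CpGs (chr16:92694995-92698890), the level was 32.7% and 36.5% in WT, 33.8% and 31.0% in hSTAT5B, and 18.3% and 16.6% in hSTAT5BN642H. Both hSTAT5BN642H libraries were thus below the other 4, and the difference of the genotype means was -17.2 points to WT and -15.0 points to hSTAT5B. On average over the 6 libraries the level was 28.2%, which 83.1% of the promoters of all genes did not reach. In limma the log2 ratio of methylated to unmethylated reads gave an adjusted p = 0.695 for hSTAT5BN642H against WT and an adjusted p = 0.747 against hSTAT5B, and the quasi-binomial model, an alternative that weighs reads by depth, gave an adjusted p = 0.0915 and an adjusted p = 0.308.

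Within this promoter, the methylated CpGs and the difference between genotypes were in the same 18 CpGs of the first exon. To follow levels at this scale, measured CpGs at most 200 bp from the next one were joined into blocks over the whole genome, a choice made after the levels in the promoters had been seen. The block runs from 1248 to 1671 bases after the start (chr16:92695657-92696080). Its 12 CpGs farther into the transcript are in coding sequence, in exon 1 of the proximal transcripts Runx1-202 and Runx1-203 and also in exon 3 of the distal transcript Runx1-201, and code for residues ahead of the Runt domain. The 6 CpGs nearer the start are in the 5′ untranslated part of that exon, beyond the separate annotated start of Runx1-203 at 1203 bases. The coding stretch (chr16:92695652-92695733) and 30 bases of the untranslated part (chr16:92695917-92695946) are shown on the minus strand with CG in capitals, since the difference rests on CpGs in them. Of the 13 CGs in the coding line, 12 were measured, all but the last.
Runx1 exon 1 coding: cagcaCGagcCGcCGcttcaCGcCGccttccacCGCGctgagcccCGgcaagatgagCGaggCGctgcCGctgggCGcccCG
Runx1 exon 1 leader: gcCGatcCGtgtaactagatctcagtcCGg

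The mean level of the 18 CpGs was 81.7% and 88.8% in WT, 83.0% and 77.7% in hSTAT5B, and 44.0% and 41.5% in hSTAT5BN642H. The 4 libraries without the mutation overlapped each other, whereas both hSTAT5BN642H libraries were below the lowest of them. Genotype means were 85.2% ± 5.03 (SD, n = 2) in WT, 80.4% ± 3.75 in hSTAT5B, and 42.7% ± 1.82 in hSTAT5BN642H. Each of the 18 CpGs, taken alone, had both hSTAT5BN642H libraries below the other 4. The coding CpGs averaged 46.0% and 44.3% in hSTAT5BN642H and 75.2% to 91.6% elsewhere, and the untranslated CpGs averaged 40% and 35.7% against 82.0% to 90.5%. These CpGs share reads and are not 18 separate observations. The block was also set out after the levels had been seen, and the share of all CpGs with this order was not counted. The count of CpGs is thus a description of the block and adds no support to its difference. The same holds for the counts of CpGs in the Runx2 and Runx3 blocks below. As an example, the CpG at position 92695699 had 12 of 14 and 36 of 36 reads methylated in WT, 38 of 41 and 9 of 12 in hSTAT5B, and 18 of 36 and 9 of 26 in hSTAT5BN642H.

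**Figure D2:**
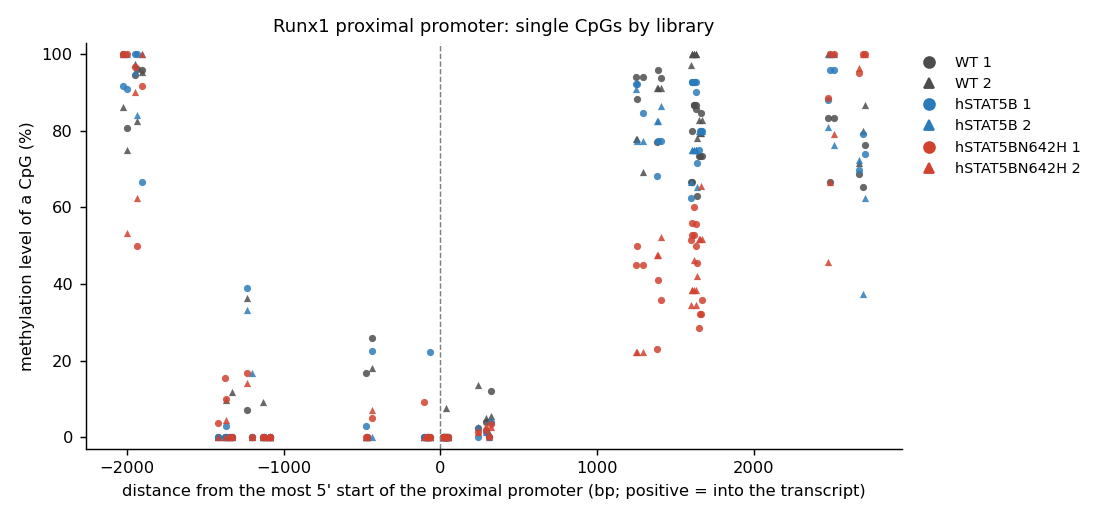
Methylation level (%, y axis) of single CpGs of Runx1 against their distance from the most 5′ start of the proximal promoter (bp, x axis), with 1 point per CpG and library. Between 1248 and 1671 bp both hSTAT5BN642H points of each CpG lie below the other 4, while most points around the start are at or near 0%.

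The difference of -42.5 points between hSTAT5BN642H and WT corresponded to a log2 difference of -3.01 ± 0.48 (SE) in the ratio of methylated to unmethylated reads. In limma over 128567 blocks its adjusted p was 0.650. In limma 0 blocks passed in any of the 3 comparisons, a share of 0%, and 9223 blocks had an unadjusted p under 0.05 in hSTAT5BN642H against WT. The quasi-binomial model called 29 blocks in that comparison, 0.0226% of those tested, and the Runx1 block was one of them with an adjusted p = 0.0238. By the p of that model it stood at rank 4. Against hSTAT5B the difference was -37.6 points, with an adjusted p = 0.662 in limma and an adjusted p = 0.165 in the quasi-binomial model, and the difference of hSTAT5B and WT was -4.83 points with overlapping libraries. Of all 128567 blocks, 33 had hSTAT5BN642H at least this far below WT with no overlap, and of the 20216 blocks with at least 10 CpGs this was the single one. Without any 1 of the 4 libraries compared it was between -46.0 points and -38.9 points.

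Outside the block the levels were low toward the start and high on the other side. The 15 CpGs from -105 to 326 bases from the start had 0.518% to 2.20% in all libraries, and 11 CpGs at -1421 to -1087 bases had 0.649% to 6.08%. Between these, 3 CpGs had 14.2% and 6.06% in WT, 8.51% and 0% in hSTAT5B, and 1.67% and 2.38% in hSTAT5BN642H, from 36 to 112 reads per library. Farther upstream, 5 CpGs at -2029 to -1905 bases were at 81.2% to 95.9%. On the other side, 6 intronic CpGs at 2474 to 2710 bases after the start were at 73.9% and 89.7% in WT, 83.8% and 71.6% in hSTAT5B, and 97.3% and 81.3% in hSTAT5BN642H, with overlap between genotypes. None of these neighboring blocks had a difference of 10 points without overlap between hSTAT5BN642H and WT.

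Of the regions farther into the Runx1 gene, none of those tested in limma passed. The internal CGI, where the CpGs are in a coding exon (13 CpGs), was at 95.4% to 98.7% and the other exons (12 CpGs) were at 95.5% to 98.6%. Introns outside CGIs (98 CpGs) were at 89.5% ± 0.461 in WT, 88.9% ± 0.636 in hSTAT5B, and 90.0% ± 0.536 in hSTAT5BN642H. Within this methylated background 3 CpGs, 52575 to 52654 bases after the start, were at 0.926% to 11.1% in all 6 libraries. In the intron between the distal and the proximal start, 4 CpGs at -86525 to -86245 bases from the proximal start were at an intermediate 50.7% and 47.8% in WT, 53.4% and 35.3% in hSTAT5B, and 43.3% and 46.9% in hSTAT5BN642H.

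**Figure D3:**
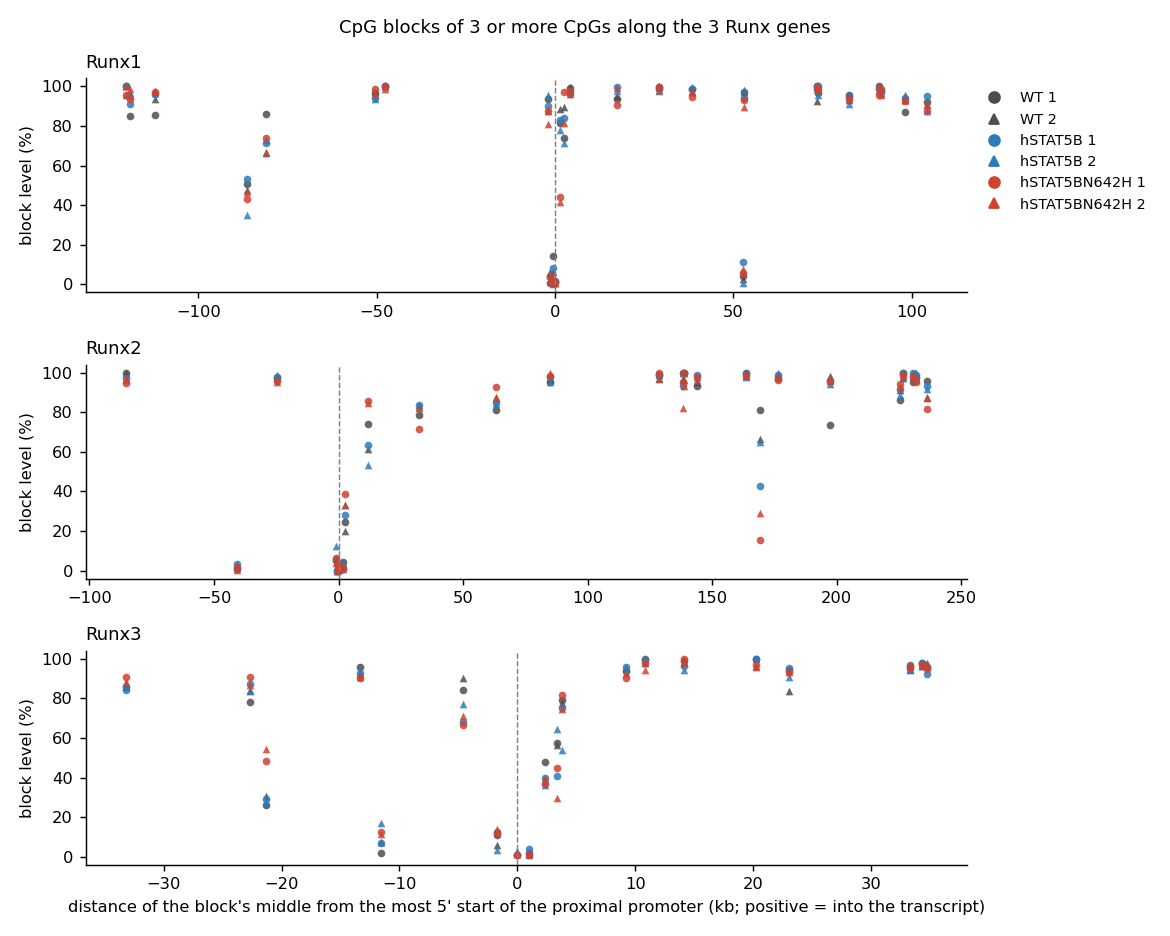
Mean level (%, y axis) of blocks of at least 3 CpGs in Runx1, Runx2, and Runx3 against the distance of the block from the proximal start (kb, x axis; the scale differs between genes), with 1 point per block and library. In Runx1 and Runx2 most blocks away from the start are near 100%, and in Runx3 several blocks ahead of and behind the start are at low or intermediate levels.

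Blocks of at least 3 CpGs numbered 26 in Runx1, 26 in Runx2, 20 in Runx3, and 6 in Cbfb. Of these 78 blocks, 17 were below 20% in all 6 libraries and 44 were above 80% in all of them, shares of 21.8% and 56.4%, against 17.6% and 60.2% of all blocks in the genome. In hSTAT5BN642H 3 of the 78 blocks were at least 10 points above WT with no overlap of libraries, and 4 were as far below. The shares of all 128567 blocks that met this were 2.23% for higher and 2.72% for lower, and the members' shares were 3.85% and 5.13%. Against hSTAT5B there were 2 higher and 2 lower blocks, at a background of 1.90% and 2.73%. In hSTAT5B against WT 0 were higher and 3 were lower, at a background of 1.78% and 1.59%. For the other 6 blocks with a difference to WT, 11 to 1545 blocks of the genome had one at least as large in the same direction. With counts this small, no difference of the 4 genes from the background can be read from them.

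**Figure D4:**
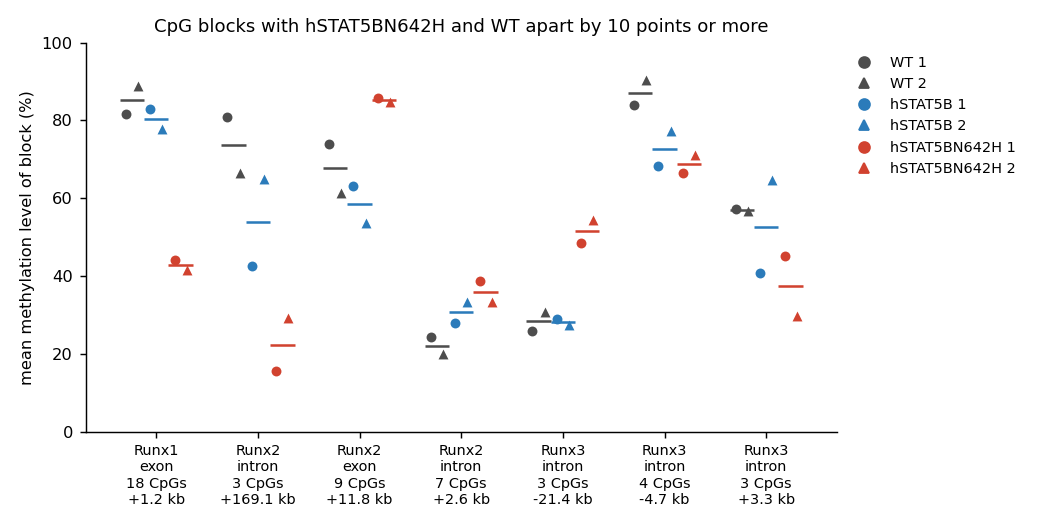
Mean level (%, y axis) of the 7 blocks in which hSTAT5BN642H and WT differed by at least 10 points with no overlap, with 1 point per library and a line at each genotype mean. The x axis gives the gene, whether the block is in an exon or an intron, its number of CpGs, and its distance from the proximal start (kb). The Runx1 exon block and the Runx2 block at 169.1 kb have the widest gaps between hSTAT5BN642H and WT, at -42.5 and -51.4 points.

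Runx2 contained 3 of these 7 blocks. In a coding exon, exon 2 of Runx2-203, which encodes a stretch of the Runt domain, 9 CpGs (chr17:44724756-44724889, 11759 to 11892 bases after the proximal start) had 74.0% and 61.4% in WT, 63.3% and 53.5% in hSTAT5B, and 85.7% and 84.9% in hSTAT5BN642H. Both hSTAT5BN642H libraries were above the other 4, by 17.6 points over the WT mean and 26.9 points over the hSTAT5B mean. All 9 CpGs had a higher mean in hSTAT5BN642H than in WT, 5 of them without overlap. Without WT replicate 2 the difference to WT was 11.3 points. The adjusted p was 0.651 in limma and 0.122 in the quasi-binomial model. The stretch is given as chr17:44724751-44724895 on the minus strand, with CG in capitals (9 of the 10 were measured, all but the last), to be set beside the Runx1 exon, where the difference had the other sign.
Runx2 coding exon block: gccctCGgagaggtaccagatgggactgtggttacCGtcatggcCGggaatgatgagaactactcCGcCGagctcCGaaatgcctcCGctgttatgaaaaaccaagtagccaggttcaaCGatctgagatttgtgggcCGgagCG

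Through this block, all Runx2 exons outside CGIs together (15 CpGs) were at 73.5% ± 5.33 in WT, 68.0% ± 4.13 in hSTAT5B, and 85.2% ± 0.676 in hSTAT5BN642H. A second block with higher levels was in an intron next to the proximal promoter, 2586 to 2861 bases after the start, where 7 CpGs had 24.4% and 19.9% in WT, 27.9% and 33.3% in hSTAT5B, and 38.7% and 33.2% in hSTAT5BN642H. There the hSTAT5B and hSTAT5BN642H libraries overlapped. Next to it, 10 CpGs of the proximal promoter, 1707 to 1871 bases after the start, were at 0.9004% to 4.26% in all libraries.

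The third Runx2 block was deep in the gene, 169112 bases after the proximal start, and had the largest gap between hSTAT5BN642H and WT of all blocks in the 4 genes. Its 3 intronic CpGs (chr17:44567463-44567536) had 81.0% and 66.4% in WT, 42.5% and 65.1% in hSTAT5B, and 15.5% and 29.1% in hSTAT5BN642H. Both hSTAT5BN642H libraries were below all others, with a difference of -51.4 points to WT and -31.5 points to hSTAT5B, and the libraries within each genotype also lay well apart. Without hSTAT5B replicate 2 the difference to hSTAT5B was -20.3 points. The block had 75 to 158 reads per library. In limma the adjusted p was 0.650, and in the quasi-binomial model it was 0.138. A CpG nearby, at position 44566770 and 169878 bases from the start, had 56.7% and 65.1% in WT, 64.5% and 67.9% in hSTAT5B, and 11.8% and 0% in hSTAT5BN642H. The sequence of the block (chr17:44567458-44567542, minus strand) is shown because its CpGs had the widest gap.
Runx2 block 44567463: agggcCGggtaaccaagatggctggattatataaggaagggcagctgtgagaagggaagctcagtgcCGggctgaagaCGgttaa

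Runx2 introns as a whole (105 CpGs) differed by less than 2 points between the genotype means, at 82.4% ± 0.479 in WT, 83.7% ± 1.36 in hSTAT5B, and 82.1% ± 0.996 in hSTAT5BN642H. The internal CGI of Runx2 (23 CpGs) is the start of Supt3, a gene for a SAGA complex subunit that runs the other way, and had 0.483% to 2.81% in all libraries. At a CpG in an intron, at -55591 bases from the proximal start and named for its large difference, hSTAT5B was between the other genotypes. Levels were 27.3% and 35.5% in WT, 46.9% and 56% in hSTAT5B, and 71.1% and 65.6% in hSTAT5BN642H, with 11 reads in WT replicate 1. Its block of 2 CpGs had 18.2% and 22.7% in WT, 25.1% and 42.3% in hSTAT5B, and 46.6% and 39.1% in hSTAT5BN642H. In that block hSTAT5B and hSTAT5BN642H overlapped.

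Runx3 had the lowest levels of the Runx genes in introns and in exons outside CGIs. Its introns (80 CpGs) were at 50.8% ± 0.330 in WT, 52.3% ± 0.250 in hSTAT5B, and 51.0% ± 0.671 in hSTAT5BN642H, and its exons outside CGIs (16 CpGs) at 28.5% to 32.4%. In 6610 genes with at least 10 intronic CpGs the median was 87.5%, and 6.60% of them were below Runx3, against 34.8% below Runx2 and 57.6% below Runx1. Blocks with low or intermediate levels lay around the proximal start. Between the distal and the proximal start, 9 CpGs at -11656 to -11550 bases from the latter were at 2.19% to 16.9%, and 9 more at -1839 to -1692 bases were at 3.52% to 14.2%. Past the start, 23 CpGs up to 1321 bases were at 0.767% to 3.72%, and 4 CpGs at 2272 to 2443 bases were at 36.1% to 47.8%. From 9133 bases on, blocks were at 83.8% to 100% through the rest of the gene, its internal CGI included.

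In 3 Runx3 blocks hSTAT5BN642H and WT were at least 10 points apart, while the mean over all introns was not. The block at -21357 to -21289 bases from the proximal start, in an intron (3 CpGs, chr4:135131139-135131207), had 26.0% and 30.7% in WT, 29.0% and 27.4% in hSTAT5B, and 48.6% and 54.3% in hSTAT5BN642H. Here WT and hSTAT5B were alike to within 1 point in their means, both hSTAT5BN642H libraries were above all others, and so were they at each of the 3 CpGs. With reads pooled over the CpGs the difference to hSTAT5B was 15.1 points in place of 23.2 points. The adjusted p was 0.697 in limma and 0.348 in the quasi-binomial model. The sequence (chr4:135131134-135131213, plus strand) is shown as the Runx3 block with a higher level in hSTAT5BN642H.
Runx3 block 135131139: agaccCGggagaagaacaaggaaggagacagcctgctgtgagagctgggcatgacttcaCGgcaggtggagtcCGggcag

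Both other Runx3 blocks were lower in hSTAT5BN642H than in WT. The 4 CpGs at -4662 to -4552 bases from the proximal start had 84.0% and 90.3% in WT, 68.2% and 77.2% in hSTAT5B, and 66.4% and 71.01% in hSTAT5BN642H. In this block hSTAT5B was also below WT with no overlap, at a difference of -14.4 points, and did not separate from hSTAT5BN642H. Of the 4 CpGs, 3 had a lower mean in hSTAT5BN642H than in WT, 2 of them without overlap, and with reads pooled over the CpGs the difference was -32.3 points in place of -18.5 points. The 3 CpGs at 3261 to 3470 bases after the start had 57.4% and 56.6% in WT, 40.8% and 64.6% in hSTAT5B, and 45.1% and 29.7% in hSTAT5BN642H, from 42 to 76 reads per library. Without hSTAT5BN642H replicate 2 the difference to WT was -11.9 points, against -19.6 points with it, and over the 5 CpGs with 1 read in all libraries it was -4.05 points. Of its 3 CpGs, 2 had a lower mean in hSTAT5BN642H than in WT. In limma the adjusted p was 0.650 for the first and 0.826 for the second, and in the quasi-binomial model it was 0.136 and 0.612.

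The distal promoters could not be compared at this depth. Not 1 CpG in them had 5 reads in all 6 libraries, in windows with 3 (Runx1), 2 (Runx2), and 4 (Runx3) CCGG sites, against 27, 33, and 16 CCGG sites in the proximal windows. Over all reads, 3 of 100 were methylated in the Runx1 window, or 3% (exact 95% binomial interval 0.623% to 8.52%), with 3 of 45 in WT, 0 of 32 in hSTAT5B, and 0 of 23 in hSTAT5BN642H. In the Runx2 window, 48 of 70 reads were methylated, or 68.6% (56.4% to 79.1%). In the Runx3 window, 0 of 29 reads were methylated in WT, 11 of 22 in hSTAT5B, and 4 of 16 in hSTAT5BN642H, from 9 CpGs of which 1 had a read in every library. With so few reads no comparison between genotypes was made, and the intervals cover counting error only.

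Cbfb differed between genotypes in 0 of its 6 blocks at 10 points without overlap. Its 4 intronic CpGs had 75.0% and 77.8% in WT, 72.6% and 76.8% in hSTAT5B, and 73.0% and 92.3% in hSTAT5BN642H. A CGI downstream of the gene, at the start of the neighboring D230025D16Rik, was at 1.09% to 2.79%. At a single CpG of the promoter with at least 10 reads, 574 bases after the start, both hSTAT5BN642H libraries (3.45% and 0%) were below both WT libraries (12.5% and 7.14%), with hSTAT5B at 18.5% and 0%.

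In limma over the 66206 regions of all protein-coding genes, 0 regions were called in hSTAT5BN642H against WT (0%), 0 in hSTAT5BN642H against hSTAT5B (0%), and 0 in hSTAT5B against WT (0%). In the first comparison 4682 regions had an unadjusted p under 0.05, and the quasi-binomial model called 73 (0.110%). Of the 21 regions of the 4 genes that were tested, 0 were called by either model in any comparison, and 2, 3, and 1 had an unadjusted p under 0.05 in limma in the same order of comparisons, where 7.07%, 6.87%, and 6.28% of all regions had one. The 2 were the Runx1 proximal promoter and the Runx2 exons outside CGIs. The 3 were the same Runx2 exons and both 10 kb flanks of Cbfb, and the 1 was the downstream flank of Cbfb. For single CpGs limma over 1192344 CpGs gave no adjusted p under 0.728 for the members in hSTAT5BN642H against WT. A count of 0 with an adjusted p this high does not show that the genotypes were alike.

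The cell type given in the labels was checked at marker genes. Around Cd8b1, which encodes the CD8β chain, the level was 44.2% and 45.6% in WT, 23.9% and 29.4% in hSTAT5B, and 13.9% and 14.3% in hSTAT5BN642H. Around Cd8a it was 65.7% in WT replicate 1 and 35.8% in WT replicate 2, 35.4% and 42.6% in hSTAT5B, and 33.3% and 29.8% in hSTAT5BN642H. The Cd8b1 level thus fell from WT over hSTAT5B to hSTAT5BN642H. In all 4 member blocks that were lower in hSTAT5BN642H than in WT, the hSTAT5B mean also lay between theirs. Those blocks were picked for that difference, so only the place of hSTAT5B was free. In the Runx1 exon block and the Runx3 block at 3261 bases, hSTAT5B and WT overlapped. Of the higher blocks, only the Runx2 block at 2586 bases had hSTAT5B between. In the Runx2 exon block and the Runx3 block at -21357 bases, hSTAT5B was below WT, at 58.4% against 67.7% and 28.2% against 28.3%. A link to Cd8b1 was not tested. WT replicate 1 stood apart at Cd8a. The other T cell genes, the B cell genes Cd79a, Cd79b, and Pax5, and the myeloid genes Csf1r, Lyz2, Itgam, Cd14, and Spi1 were measured in all libraries, and Ms4a1 had too few CpGs. Csf1r stood at 92.8% to 94.2% and Pax5 at 40.4% to 42.3%, and the 2 CD4 T cell genes, Cd4 and Zbtb7b, at 29.2% to 30.9% and 26.6% to 29.7%. Cd79b was at 37.0% and 41.7% in WT and 50.1% and 46.7% in hSTAT5BN642H, and Cd79a at 10.4% and 9.41% against 8.70% and 8.39%. Spi1 was at 60.8% and 61.6% against 64.4% and 62.6%, and Itgam at 91.4% and 91.3% against 89.9% and 89.96%. These 4 genes did not overlap between hSTAT5BN642H and WT, nor did Pax5, Zbtb7b, Cd8a, and Cd8b1. Without overlap, Cd2 was at 66.6% and 64.9% in WT and 61.7% and 62.9% in hSTAT5BN642H, and Cd5 at 69.4% and 71.6% against 66.5% and 67.2%. Lck was at 29.7% and 29.2% against 28.3% and 28.6%, and Thy1 at 55.5% and 51.1% against 47.7% and 40.7%, also without overlap. Cd3d, Cd3e, Cd3g, Cd4, Csf1r, Lyz2, and Cd14 overlapped. No minimum difference was set for these markers, and the share of all genes without overlap was not counted. With 2 libraries against 2, an exact permutation test cannot go below p = 0.333. A change in the mixture of cells can therefore not be read from these lists. The part of such differences in the Runx results was not tested. Without WT replicate 1, the Runx1 exon block differed by -46.0 points between hSTAT5BN642H and the remaining WT library. WT replicate 1 was the lower WT library there, at 81.7% against 88.8%, so that leaving it out could only widen the gap. The mixture of cells was not tested by this.

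Genes that work with RUNX were taken from fixed lists. Of 16 partners and coregulators, with 69 regions, 0 regions were called by either model in any comparison, and 2 regions were at least 10 points higher and 0 lower in hSTAT5BN642H than in WT without overlap. Over all 66206 regions, 1.44% were as far higher and 1.54% as far lower. The first promoter of Cbfa2t3, which encodes a corepressor of the ETO family, had 26.4% and 21.5% in WT, 25.9% and 25.2% in hSTAT5B, and 58.2% and 43.5% in hSTAT5BN642H over 6 CpGs. The 10 kb upstream of Tle3, a Groucho-type corepressor that RUNX proteins recruit, had 37.1% and 50.0% in WT, 46.9% and 45.3% in hSTAT5B, and 61.5% and 56.9% in hSTAT5BN642H. Both were higher in the hSTAT5BN642H libraries than in all others, and without WT replicate 1 the differences to WT were 29.4 points at Cbfa2t3 and 9.24 points at Tle3. The median difference over the 69 regions was 0.146 points, and over all regions it was -0.197 points.

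Of 21 T cell genes known to be regulated by RUNX, 19 had a measured region, with 64 regions in all. In hSTAT5BN642H against WT, 2 regions were higher and 7 lower by 10 points without overlap, and 0 were called in limma. Over all 66206 regions, 1.44% were as far higher and 1.54% as far lower. The 7 lower regions include 4 of Cd8a and Cd8b1 and are not 7 separate genes. The median difference was -0.356 points, against -0.197 points over all regions. The quasi-binomial model called 1, the Cd8b1 promoter, where it called 0.110% of all regions. That promoter had 37.8% in both WT libraries, 18.8% and 17.5% in hSTAT5B, and 8.51% and 11.8% in hSTAT5BN642H (6 CpGs, adjusted p = 0.0131 in that model). Lower levels were also seen in 3 regions of Cd8a, in introns of Eomes and of Il4, and in exons of Ccr7, a homing receptor gene. For the Eomes introns the adjusted p was 0.964 in limma and 0.915 in the quasi-binomial model. The 10 kb upstream of Eomes went the other way, with hSTAT5BN642H 11.6 points above hSTAT5B. Without WT replicate 1 the differences in the Cd8a introns, 10 kb upstream, and exons were -2.32, -3.42, and -14.3 points, against -21.5, -24.8, and -28.3 points with it, so that the first 2 of these regions were no longer 10 points lower. In the 4 Cd8a and Cd8b1 regions the CpGs are those of the marker check above. The exons of Tbx21, the gene of the T-bet transcription factor, were higher. They had 46.9% and 42.8% in WT, 57.6% and 53.9% in hSTAT5B, and 62.4% and 58.3% in hSTAT5BN642H. The other higher region was the second promoter of Spi1, over 5 CpGs. That promoter had 42.2% and 42.5% in WT, 48.6% and 37.0% in hSTAT5B, and 60.7% and 46.8% in hSTAT5BN642H.

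The genes with the most similar intronic pattern were listed over 6609 other genes, by Pearson's r over the 6 libraries of the mean intronic level. For Runx1 they were Tmem202 (r = 0.975), Evx2 (r = 0.972), and Sipa1l3 (r = 0.971). For Runx2 they were Slc7a10 (r = 0.992), Abca4 (r = 0.986), and Edil3 (r = 0.976), and for Runx3 they were Smg6 (r = 0.989), Kazn (r = 0.983), and Dnajc3 (r = 0.981). With 6 points and levels that varied by under 4 points in each Runx gene, 8, 18, and 15 genes had r of at least 0.95. Cbfb had too few intronic CpGs for this.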

How the data were processed

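Reads of 6 RRBS libraries were trimmed by the authors with Trimmomatic and aligned to GRCm38 (mm10) with BSMAP in RRBS mode (versions not given in the sources used here), with methylation per CpG taken by Python code of their own. The deposited files give, per CpG, the count of methylated reads over the count of all reads, not normalized, in an m/n text column of another kind of unit. The deposited score, the methylated share scaled to 1000, was used only to check these counts.

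CGIs were called on GRCm38 by the UCSC rule (length over 200 bp, GC over 50%, observed/expected CpG over 0.6). Promoters ran from 1000 bp before to 500 bp after the starts of protein-coding GENCODE M21 transcripts, with any overlapping CGI. Regions with 3 or more CpGs that met the minimum of 5 reads in each of the 6 libraries were tested with limma. The response was the log2 ratio of methylated to unmethylated reads after 1 read was added to either, and all 6 libraries entered 1 model, with Benjamini-Hochberg adjustment over all regions, all 2-sided. The same model was used for CpG blocks and single CpGs. With 2 libraries against 2, an exact permutation test cannot go below p = 0.333 and was not used. The code was run on simulated reads, with changes only at well covered features that began at a very low or very high level. Shallow blocks and blocks at intermediate levels were not imitated, so nothing about the tests of such blocks follows from it. The members and lists were chosen with earlier results of these data known. Named CpGs had at least 10 reads in all 6 libraries, no overlap of hSTAT5BN642H and WT, and the largest differences, up to 5 per gene. Alternatives were 10 or 1 reads per CpG, no CpGs with 1000 or more reads, leaving out each library, the replicate number as a block, percentage points, a quasi-binomial model with moderated dispersions, an offset of 0.5, at least 10 CpGs, a mean-variance trend, only the genotypes compared, pooled reads, and other promoter windows. Blocks were added after the levels had been seen. One marker gene is not reported here. The labels do not say that the 2 libraries of a genotype are separate mice, so p-values measure only the spread between these libraries. RRBS reads carry no molecular identifiers, and neighboring CpGs share reads. Fits used limma 3.58.1 in R 4.3.3, tables were made in Python 3.11.15 with pandas 2.3.3 and numpy 2.4.6, intervals with scipy 1.17.1, and plots with matplotlib 3.10.9.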

Additional observations from a re-analysis of the deposited data

How the results depend on the processing

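With limma, 0 regions and 0 CpG blocks were called in all 3 comparisons, and this was so under every alternative of the limma model, including without each library. The quasi-binomial model called 73 regions in hSTAT5BN642H against WT, 13 in hSTAT5BN642H against hSTAT5B, and 2 in hSTAT5B against WT, and 29, 0, and 1 blocks in the same order. The cause of this gap between models was not tested. The 18 differences of at least 10 points without overlap kept their direction in all 256 values. For many of these values no other outcome was possible. Leaving out 1 library cannot reverse a difference without overlap, and changes of the limma model alone left the levels as they were. Of the 18, 1 passed the threshold under the quasi-binomial model alone, the Runx1 exon block in hSTAT5BN642H against WT, at -42.1 points from pooled reads. Its adjusted p ranged from 0.344 to 0.991 over the alternatives of limma on the log2 scale and was 0.277 on the scale of percentage points. The Runx1 proximal promoter differed by -11.7 points between hSTAT5BN642H and WT over the 86 CpGs with 1 read in all libraries and by -22.9 points over the 29 with 10 reads, and to hSTAT5B by -9.10 points with 1 read. With the replicate number as a block the Runx1 exon block had an adjusted p = 0.709, and no call changed. The numbers mark no shared mouse or litter in the labels, and deviations of libraries with the same number correlated at -0.00153, -0.000227, and -0.0159 over 32347 regions. In hSTAT5B against WT, the Runx2 block at 169112 bases ranged from -31.1 points without hSTAT5B replicate 2 to -8.63 points without hSTAT5B replicate 1, with -19.9 points from all libraries, and was at -12.6 points without WT replicate 1. The Runx3 block at 3694 bases, at -13.7 points, ranged from -24.2 points without hSTAT5B replicate 1 to -3.14 points without hSTAT5B replicate 2 and was at -5.86 points with pooled reads. Depth limits the distal promoters, where too few reads were present for any comparison.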
